A study of Mus musculus with 12 samples.

Results

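The Slc38 genes encode sodium-coupled neutral amino acid transporters, and 9 of them, Slc38a1, Slc38a2, Slc38a3, Slc38a5, Slc38a6, Slc38a7, Slc38a9, Slc38a10 and Slc38a11, were followed across 4 mouse genotypes. They were taken by symbol from a table of 24421 genes, and 8 of the 9 were among the 13065 genes that passed the expression filter. Slc38a11 did not. Slc38a2 had been picked because its WT level lies above that of every other genotype, so its differences from WT are given as a description without a test. The other members were taken because they belong to the family.

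RNA of the hippocampus, taken at an age of 2 months, was read by 3′ mRNA sequencing, in which each count stands for a transcript end and carries no gene-length term. There were 12 libraries, 3 from each of WT, 5xFAD, p75NTRko and 5xFAD/p75NTRko mice, all dissected after BrdU injections. 5xFAD is a model of inherited Alzheimer's disease whose mutant human transgenes are driven by a Thy1 promoter that is active in neurons, and p75NTRko names a knockout of the neurotrophin receptor encoded by Ngfr. The series title places these genotypes in a study of how that receptor acts on adult hippocampal neurogenesis in the disease model. The labels give neither the sex nor the strain of the mice, and do not say which part of Ngfr is deleted.

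Neurons lose glutamate and GABA at each release, astrocytes take them up and turn them into glutamine, and glutamine returns to neurons to be made into transmitter again. Slc38 transporters stand on both sides of this cycle: Slc38a3 and Slc38a5 (system N) can pass glutamine out of glial cells, while Slc38a1 and Slc38a2 (system A) carry glutamine, alanine and other small neutral amino acids into cells. Slc38a2 is also known as an adaptive transporter, since cells raise it when amino acids are scarce or the medium is hypertonic. Slc38a7 and Slc38a9 work on the lysosome, where Slc38a9 reports arginine to the growth kinase complex mTORC1.

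Slc38a2 lies on the minus strand of chromosome 15 at 96687392 to 96699728 (RefSeq genes on GRCm38.p6, the build called mm10 in the submitters' processing notes). Slc38a1 lies next to it on the same strand, at 96571418 to 96643438. The remaining members are spread over chromosomes 2, 8, 9, 11, 12, 13 and X, with Slc38a5 on X at 8271381 to 8280179. Promoter sequence, 250 bases before and 50 after the annotated start, was found in the RefSeq table for 7 of the 9 members. Those of Slc38a2 and Slc38a5 are printed because these members had the clearest differences between genotypes. GENCODE places the start of Slc38a5 at 8271133, so by that annotation nearly all of its window lies within the gene. They are written 5′ to 3′ on the gene's own strand, with TATAA in capitals.

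Slc38a2, chr15:96699679-96699978, minus strand, GRCm38.p6: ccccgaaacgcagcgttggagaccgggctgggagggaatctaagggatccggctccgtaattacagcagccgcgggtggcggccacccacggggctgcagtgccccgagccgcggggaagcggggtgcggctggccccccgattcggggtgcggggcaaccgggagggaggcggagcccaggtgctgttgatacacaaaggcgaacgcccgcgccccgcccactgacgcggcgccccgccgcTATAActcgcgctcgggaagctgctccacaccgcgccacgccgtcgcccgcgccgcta

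Slc38a5, chrX:8271131-8271430, plus strand, GRCm38.p6: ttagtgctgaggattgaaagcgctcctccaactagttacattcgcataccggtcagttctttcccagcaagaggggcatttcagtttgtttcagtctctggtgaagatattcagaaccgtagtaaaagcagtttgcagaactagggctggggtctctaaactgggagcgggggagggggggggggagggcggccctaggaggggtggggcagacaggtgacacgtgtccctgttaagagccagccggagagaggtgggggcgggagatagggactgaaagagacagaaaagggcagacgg

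The Slc38a2 window held 41 CpG dinucleotides and was 73% G or C, with more CpG than 96.5% of the 32841 promoters of that length in the table. The Slc38a5 window held 10 CpG and was 56% G or C, nearer the median of 7 CpG and 52.7%. The 4 short motifs searched on both strands do not overlap one another in these windows. TGGAAA is the core bound by the osmotic stress factor NFAT5. TGATGNAA is the composite element through which C/EBP and ATF factors act in the amino acid response, and the general promoter boxes were CCAAT and, added after the sequence was seen, TATAA. The last was present 8 bases before the start of Slc38a2 and in 24.9% of all promoters. CCAAT was found in Slc38a10 alone among the 7 members (37.4% of all promoters), TGGAAA in Slc38a6 and Slc38a7 (21.4%), and TGATGNAA in none of them (3.97%). The Slc38a5 window held none of the 4. Sequence outside these windows, introns included, was not searched, so an absence holds for the windows only.

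Gene-assigned counts were 4316739 to 6683613 per library, and 3 counts, taken as the limit of measurement, corresponded to 0.445 to 0.689 CPM (counts relative to TMM-scaled library size). Ngfr went against its label, at 5.94 to 10.5 CPM in the 6 libraries labelled with the knockout and 0.166 to 1.94 CPM in the other 6. Receptor genotypes are therefore named only as labelled, and every direction given for them rests on those labels. Thy1 separated the transgene carriers (1594 to 4014 CPM) from the others (687 to 938 CPM). Xist, which is transcribed from an inactive X chromosome, was 359 to 439 CPM in 7 libraries (all of WT and 5xFAD/p75NTRko, and p75NTRko replicate 1) and 1.53 to 3.57 CPM in the other 5. WT and 5xFAD thus differ in Xist class throughout, and so do 5xFAD/p75NTRko-labelled and 5xFAD libraries. Within either of these comparisons genotype and Xist class cannot be told apart. Markers of neurons, astrocytes and microglia were detected in every genotype, with none of them at 0, and the sum of 10 excitatory neuron markers, Prox1 of dentate granule cells included, was 9442 to 14378 CPM over all libraries. Thalamic and choroid plexus markers varied more than these and are given beside the members they touch.

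Slc38a2 was the most abundant member, with a mean of 258 CPM over the 12 libraries, which ranked it 735 among all genes. Slc38a1 came next at 217 CPM, and both together made up 78.6% to 83.8% of the family's summed CPM in each library. Slc38a10, a widely expressed transporter whose role in the brain is less well defined, averaged 44.4 CPM, and the lysosomal arginine sensor Slc38a9 averaged 39.2 CPM. Slc38a3 averaged 10.8 CPM, Slc38a7 10.02 CPM, Slc38a6 4.61 CPM and Slc38a5 3.30 CPM. The median gene tested had 23.2 CPM, so that 4 members were above it and 4 below. Slc38a11 had 1 to 7 counts per library, a mean of 0.691 CPM, which is near the limit of measurement, and no difference of it could be read at this depth.

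Slc38a2, the adaptive system A transporter, was highest in WT and had overlapping levels in the other genotypes. Its 3 WT libraries had 328, 341 and 352 CPM in replicates 1, 2 and 3, the 5xFAD libraries 217, 194 and 228 CPM, the p75NTRko-labelled libraries 275, 238 and 221 CPM, and the 5xFAD/p75NTRko-labelled libraries 223, 210 and 268 CPM. Every WT library lay above every other library (libraries lay lower without overlap for 9.01%, 8.49% and 5.53% of all genes in 5xFAD, p75NTRko-labelled and 5xFAD/p75NTRko-labelled against WT), while the 3 other genotypes overlapped. The lowest WT library exceeded the highest of the rest by a factor of 1.19, and no other member tested had such a gap, the nearest being Slc38a1, whose lowest WT library was 0.867 of the highest other. As a description of the choice, 3988 genes tested (30.5%) had their highest mean in WT, and 138 (1.06%) had every WT library above all others.

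**Figure D1:**
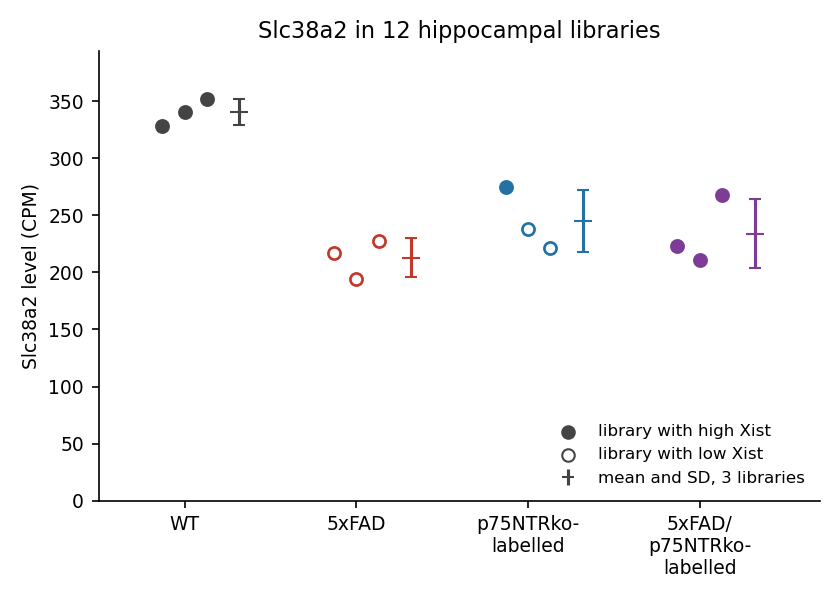
Slc38a2 level in CPM (vertical axis, from 0) in each of the 12 libraries by genotype, with filled points for libraries with high Xist and open points for low Xist, and the mean and SD of 3 libraries beside them. The WT libraries sit between 328 and 352 CPM and all others between 194 and 275 CPM.

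Mean levels were 340 CPM ± 11.6 in WT, 245 ± 27.4 in those labelled p75NTRko, 234 ± 30.2 in those labelled 5xFAD/p75NTRko and 213 ± 17.2 in 5xFAD libraries (SD, n = 3 each). The fold relative to WT was 0.626 in 5xFAD, 0.720 in libraries labelled p75NTRko and 0.687 in those labelled 5xFAD/p75NTRko, and 0.676 for the mean of all 3. On the log2 scale these are -0.68 (SE 0.109), -0.47 (SE 0.109), -0.54 (SE 0.109) and -0.56 (SE 0.0860). The 3 differences share the WT libraries and are set side by side only. The deviation from additive effects of transgene and receptor label, which also uses WT, was 0.61 on the log2 scale (SE 0.154), and 0.18 with Xist class (high or low level of Xist) as a term.

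The comparisons that do not involve WT leave out the WT level for which Slc38a2 was chosen, and none of them passed. They are not fully independent of the choice, which also required every other genotype to lie below WT. In edgeR's quasi-likelihood fit, with p adjusted by Benjamini-Hochberg over all genes, 5xFAD/p75NTRko-labelled libraries differed from 5xFAD by 0.13 log2 units (95% interval -0.10 to 0.37, adjusted p 0.988). They differed from p75NTRko-labelled libraries by -0.07 (interval -0.30 to 0.17, adjusted p 0.958). The p75NTRko-labelled libraries differed from 5xFAD by 0.20 (interval -0.03 to 0.44, adjusted p 0.779). Below WT, the order of the levels was p75NTRko-labelled, 5xFAD/p75NTRko-labelled and 5xFAD, and no neighbours in that order passed the test. Both steps turned under an alternative: 5xFAD/p75NTRko-labelled against 5xFAD was -0.12 with Xist class as a term, and against p75NTRko-labelled libraries it was 0.025 without p75NTRko replicate 1 and 0.0035 without 5xFAD/p75NTRko replicate 2. The intervals leave room for differences of up to 0.44 log2 units among these genotypes.

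Several properties of the libraries differed between WT and some or all of the other genotypes, and are set beside Slc38a2. Outside WT, Slc38a2 was 210 to 275 CPM in the 4 libraries with high Xist and 194 to 238 CPM in the 5 with low Xist. With Xist class as a term in the model, the difference from WT was -0.42 in 5xFAD and -0.31 in p75NTRko-labelled libraries. That term rests on the p75NTRko-labelled libraries, where both classes occur. Within a single class, 5xFAD/p75NTRko-labelled against WT, the difference stood at -0.54. Thalamic and habenular markers (15 of 18 passed the filter, and 1 was at 0 counts throughout 5xFAD) summed to 720 to 1035 CPM in WT, 464 to 563 in 5xFAD, 439 to 464 in libraries labelled p75NTRko and 393 to 1217 in those labelled 5xFAD/p75NTRko. With their mean as a term, the difference of 5xFAD from WT was -0.67. The highest of these sums, 1217 CPM, was in 5xFAD/p75NTRko replicate 1, which had 223 CPM of Slc38a2. Striatal markers (11 of 14 passed, 2 at 0 counts in each genotype) summed to 246 to 305 CPM in WT and 169 to 214 CPM in all other libraries, and their part in the result was not tested. In whole tissue, fewer cells of a type and less RNA per cell cannot be told apart.

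Slc38a1, the other system A transporter and the chromosomal neighbour of Slc38a2, had overlapping levels in all genotypes. It had 237, 215 and 245 CPM in WT, 210, 215 and 214 CPM in 5xFAD, 216, 192 and 199 CPM in libraries labelled p75NTRko and 248, 188 and 227 CPM in those labelled 5xFAD/p75NTRko. WT overlapped with each of the other genotypes. In the mean of the 3 other genotypes against WT, the difference was -0.13 log2 units (95% interval -0.31 to 0.04, adjusted p 0.454, edgeR), and in the single comparisons with WT it was -0.12, -0.20 and -0.07 for 5xFAD, p75NTRko-labelled and 5xFAD/p75NTRko-labelled libraries (adjusted p 0.591, 0.465 and 0.839, edgeR). The ratio of Slc38a2 to Slc38a1, which needs no scaling between libraries, was 1.39 to 1.58 in WT, 0.901 to 1.06 in 5xFAD, 1.11 to 1.28 in libraries labelled p75NTRko and 0.898 to 1.18 in those labelled 5xFAD/p75NTRko. In WT and p75NTRko-labelled libraries Slc38a2 was above Slc38a1 in every library, whereas in 5xFAD and 5xFAD/p75NTRko-labelled libraries some lay above and some below. The share of Slc38a2 in the family's summed CPM was 48.7% to 51.1% in WT and 37.3% to 45.1% in the other libraries. Both the ratio and the share use the WT values for which Slc38a2 was chosen, and are a description only.

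The system N transporters were much rarer. Slc38a3, the glutamine transporter of perisynaptic astrocytes, had 9.85, 9.24 and 14.2 CPM in WT, 11.4, 14.8 and 9.87 CPM in 5xFAD, 12.8, 9.41 and 14.0 CPM in libraries labelled p75NTRko and 10.5, 5.84 and 7.20 CPM in those labelled 5xFAD/p75NTRko. The lowest values were those of 5xFAD/p75NTRko replicates 2 and 3, and the groups overlapped. Its log2 fold change in 5xFAD/p75NTRko-labelled libraries was -0.61 against 5xFAD (95% interval -1.16 to -0.06, adjusted p 0.893, edgeR) and -0.62 against p75NTRko-labelled libraries (-1.17 to -0.08, adjusted p 0.716, edgeR), and neither passed. The second was -0.96 with the thalamic score as a term and -0.20 with the choroid plexus score as a term, with adjusted p of 0.138 to 0.998 over its alternatives (edgeR or DESeq2). The summed CPM of the 12 astrocyte markers, all of which passed the filter, was 5609 to 6485 in 5xFAD/p75NTRko-labelled libraries and 5755 to 6416 in all others.

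Slc38a5, a system N transporter found in glia and vascular cells, varied most among the members tested, by a factor of 8.46 between the highest and the lowest library. Its levels rest on few counts, 4 to 34 per library. It had 2.39, 1.46 and 4.64 CPM in WT, 0.678, 1.87 and 2.31 CPM in 5xFAD, 5.74, 5.74 and 5.05 CPM in libraries labelled p75NTRko and 4.16, 1.95 and 3.60 CPM in those labelled 5xFAD/p75NTRko. All 3 p75NTRko-labelled libraries lay above the other 9 (libraries lay higher without overlap for 8.17% of all genes against 5xFAD and 7.94% against WT, and for 5.74% those of 5xFAD/p75NTRko lay lower), and 5xFAD and 5xFAD/p75NTRko-labelled libraries overlapped. These shares are for single comparisons. The share of genes with these 3 libraries above the other 9 at once cannot be larger than any of them and was not counted. The p75NTRko-labelled libraries differed from 5xFAD by 1.78 log2 units (95% interval 0.79 to 2.77, adjusted p 0.211, edgeR) and from WT by 0.96 (interval 0.06 to 1.85, adjusted p 0.414, edgeR), and neither passed. The difference from WT was 1.495 without WT replicate 3 and 1.62 with the thalamic score as a term, with adjusted p of 0.111 to 0.818 over its alternatives (edgeR or DESeq2). When only p75NTRko-labelled and 5xFAD libraries were fitted, their difference was 1.79 with an adjusted p of 0.0235 by edgeR, against a range of 0.0235 to 0.624 over its alternatives.

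Markers of choroid plexus, the secretory epithelium of the ventricles that borders the hippocampus, were highest in the 5 libraries with most Slc38a5. All 16 passed the filter and none was at 0 in any genotype. Their sums were 4507 to 7381 CPM in p75NTRko-labelled, 326 to 1971 in 5xFAD, 2445 to 6052 in WT and 183 to 7323 in 5xFAD/p75NTRko-labelled libraries. Of the 16, Ttr alone was 3742 to 6113 CPM in p75NTRko-labelled and 142 to 1498 CPM in 5xFAD libraries. In WT it was 1945 to 4864 CPM and in 5xFAD/p75NTRko-labelled libraries 49.4 to 6017 CPM. The largest sums were thus mostly Ttr. The 5 libraries with the highest sums, at 4507 CPM or more, had 4.16 to 5.74 CPM of Slc38a5, and the other 7 had 0.678 to 3.60 CPM. Among these 7, Slc38a5 did not rise with the sums. WT replicate 2 had the highest sum of the 7, 3239 CPM, with 1.46 CPM of Slc38a5. The most Slc38a5 of the 7, 3.60 CPM, was in 5xFAD/p75NTRko replicate 3, where the sum was 368 CPM. With the choroid plexus score as a term, a setting chosen after seeing the data, the difference of p75NTRko-labelled libraries from 5xFAD was 1.48. That score was the mean log2 CPM of the 16 markers, not their sum. The 12 endothelial and mural markers summed to 367 to 450 CPM in p75NTRko-labelled and 374 to 389 CPM in 5xFAD libraries, so these ranges overlapped. Slc38a5 is on X, and its levels were 1.46 to 5.74 CPM in the 7 libraries with high Xist and 0.678 to 5.74 CPM in the 5 with low Xist. Each genotype except p75NTRko-labelled held a single Xist class, so these ranges cannot separate class from genotype, and a part of Xist class was not tested.

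**Figure D2:**
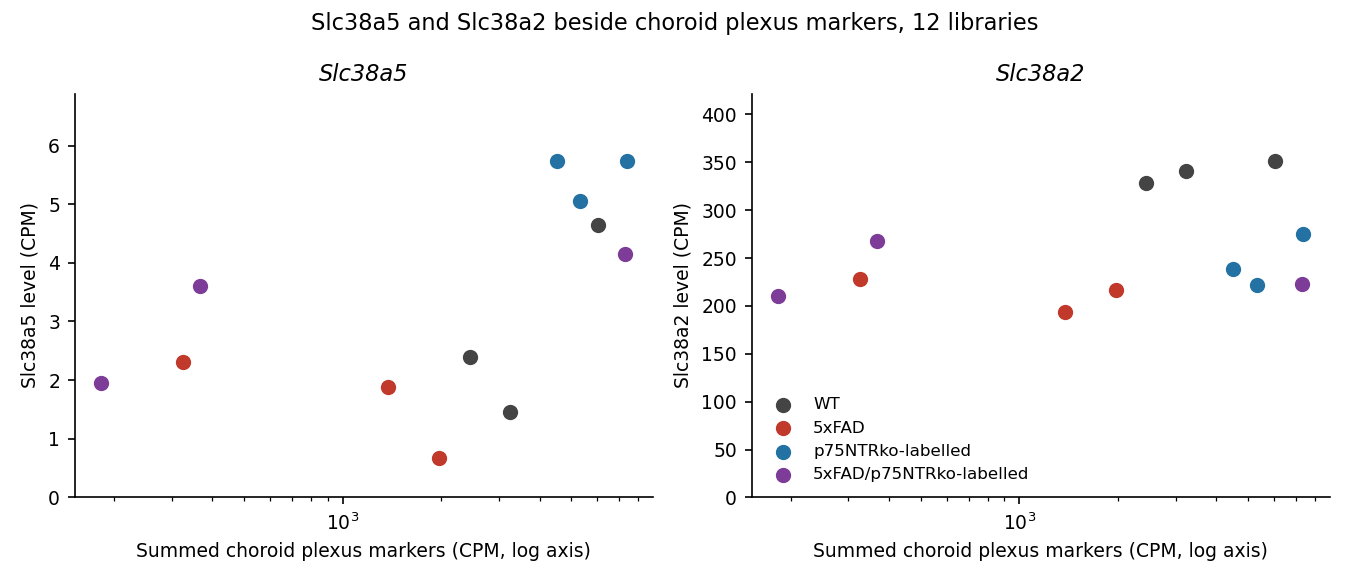
Levels of Slc38a5 (left) and Slc38a2 (right) in CPM against the summed CPM of 16 choroid plexus markers on a log axis, 1 point per library, coloured by genotype. The 5 libraries with the highest marker sums are the 5 highest for Slc38a5, at 4.16 CPM or more. The largest sums are mostly the single marker Ttr. Slc38a2 is 221 to 352 CPM in these 5 and 194 to 341 CPM in the other 7.

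The lysosomal members also overlapped between all genotypes. Slc38a9 had 43.4, 40.2 and 35.6 CPM in WT, 40.2, 33.6 and 46.0 CPM in 5xFAD, 40.2, 40.2 and 33.0 CPM in libraries labelled p75NTRko and 39.7, 37.8 and 40.9 CPM in those labelled 5xFAD/p75NTRko, with all groups overlapping. In the mean of the other genotypes against WT its difference was -0.03 log2 units (95% interval -0.26 to 0.20, adjusted p 0.920, edgeR). Slc38a7, a glutamine transporter of the lysosomal membrane, ranged from 7.50 to 11.7 CPM, and the same difference was -0.16 (interval -0.49 to 0.17, adjusted p 0.647, edgeR). Slc38a10 was the steadiest member, at 38.2 to 49.4 CPM with a coefficient of variation of 7.48% over the 12 libraries, and its difference was 0.08 (interval -0.12 to 0.28, adjusted p 0.690, edgeR). The narrow intervals of Slc38a9 and Slc38a10 leave out the size seen for Slc38a2.

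Slc38a6, an orphan member described mainly in neurons, had 4.63, 2.27 and 4.97 CPM in WT, 4.92, 5.62 and 2.73 CPM in 5xFAD, 4.63, 4.36 and 4.01 CPM in libraries labelled p75NTRko and 5.98, 5.26 and 5.89 CPM in those labelled 5xFAD/p75NTRko. The last group lay above WT and above p75NTRko-labelled libraries without overlap, and overlapped with 5xFAD. The log2 fold changes were 0.53 against WT (95% interval -0.13 to 1.19, adjusted p 0.566, edgeR) and 0.40 against p75NTRko-labelled libraries (interval -0.26 to 1.07, adjusted p 0.884, edgeR), and neither passed. The first was 0.25 without WT replicate 2, which had 14 counts, and the second 0.64 with the choroid plexus score as a term. Over all genes, libraries lay higher without overlap in 5.95% and 6.53% of cases in these comparisons.

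**Figure D3:**
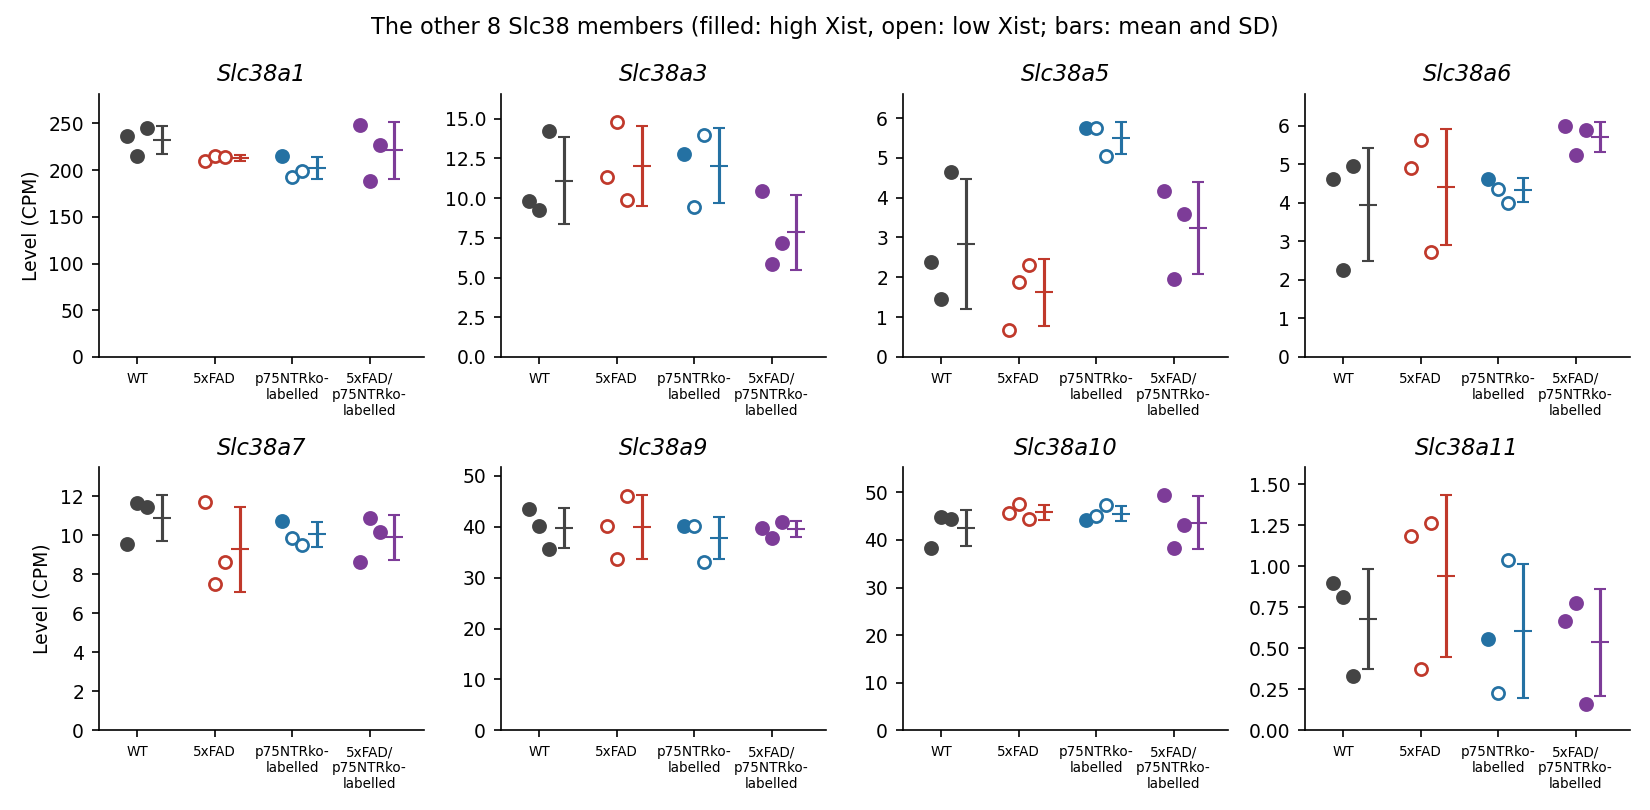
Levels in CPM (vertical axes, each from 0) of the 8 members other than Slc38a2 in the 12 libraries by genotype, drawn as for Slc38a2. Slc38a1, Slc38a9 and Slc38a10 vary little, Slc38a5 is highest in the 3 p75NTRko-labelled libraries (5.05 to 5.74 CPM), and Slc38a11 stays at or below 1.26 CPM.

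Counted over the family, no member tested other than Slc38a2 passed an adjusted p of 0.05 in any comparison (0 of 7 by edgeR, and 0 by DESeq2). DESeq2 gave Slc38a5 no adjusted p in some comparisons, 5xFAD against WT among them, and there it was counted as not passing. Over all genes the share that passed was 0.0536% in 5xFAD against WT, 0% against WT in libraries labelled p75NTRko and likewise in those labelled 5xFAD/p75NTRko, 0.0383% in the mean of the 3 other genotypes against WT and 0.0383% in the interaction. Among the comparisons without WT it was 0.0383% in 5xFAD/p75NTRko-labelled against 5xFAD, 0% against p75NTRko-labelled libraries and 0.0842% in p75NTRko-labelled against 5xFAD, where 0 of 8 members passed, Slc38a2 included. Calls were thus so few that an absence among 7 or 8 genes is near the background. At an unadjusted p under 0.05, 1 of the 7 was found in p75NTRko-labelled libraries against WT (Slc38a5), beside 11.5% of all genes. It was 0 in 5xFAD against WT (13.9% of all genes), in 5xFAD/p75NTRko-labelled libraries against WT (9.95%), in the mean of the others against WT (15.2%) and in the interaction (9.32%). In each comparison without WT 1 of 8 was found. It was Slc38a3 in 5xFAD/p75NTRko-labelled against 5xFAD (5.08% of all genes) and against p75NTRko-labelled libraries (6.59%), and Slc38a5 in p75NTRko-labelled against 5xFAD (7.20%). A single gene of 8 is near these shares. Without Slc38a2, the median log2 fold change of the 7 members against WT was 0.0036 in 5xFAD, 0.10 in libraries labelled p75NTRko and -0.0098 in those labelled 5xFAD/p75NTRko, beside medians over all genes of -0.0036, -0.00063 and 0.0042.

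**Figure D4:**
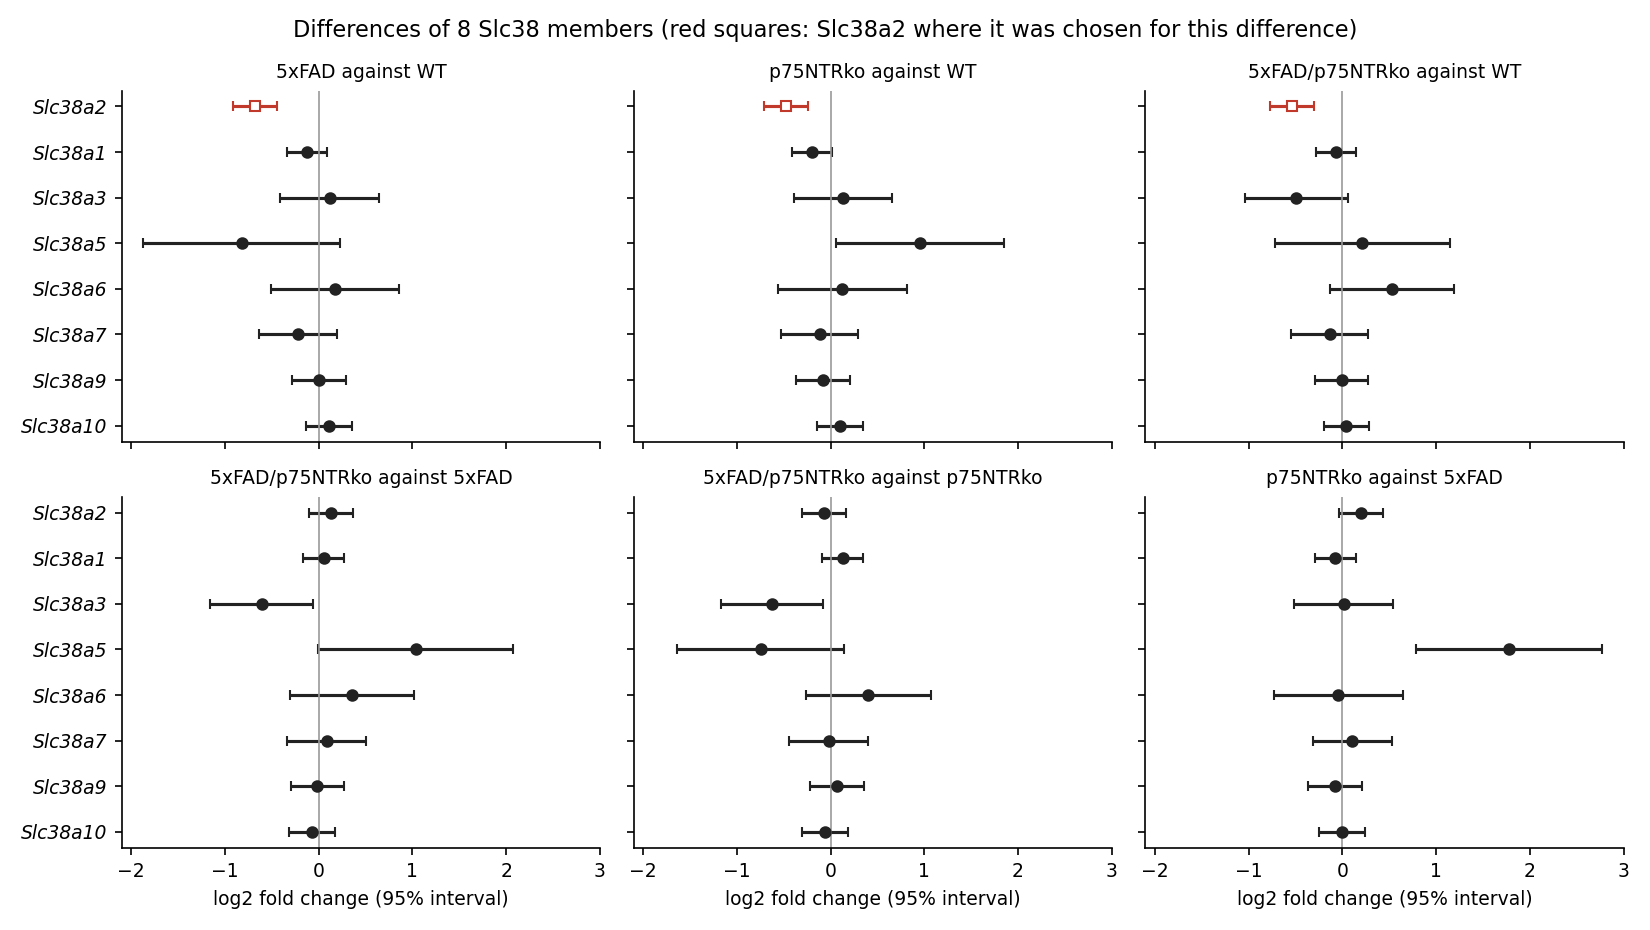
Log2 fold changes with 95% intervals (horizontal axis) of the 8 members tested, in each of 6 comparisons between genotypes. Red open squares are Slc38a2 in the comparisons with WT for which it was chosen, at -0.68, -0.47 and -0.54, and black points are all other values, of which Slc38a5 in p75NTRko-labelled against 5xFAD, at 1.78, is farthest from 0.

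Within 1 Mb of Slc38a2 on chromosome 15, 10 genes were tested, Slc38a2 and Slc38a1 among them. Leaving Slc38a2 aside, none of the other 9 passed in the comparisons with WT by edgeR. Of all genes 0% to 0.0536% passed there, so an absence among 9 is near the background. A further family gene there, Slc38a4, a system A transporter best known from liver and placenta, averaged 6.48 CPM in WT, 4.62 in 5xFAD, 3.26 in libraries labelled p75NTRko and 4.62 in those labelled 5xFAD/p75NTRko, and the mean of the others against WT was -0.63 log2 units (adjusted p 0.311, edgeR). The remaining differences in that comparison ran from -0.33 for Rpap3 to 0.45 for Pced1b (adjusted p 0.287 and 0.467, edgeR).

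The genes most like Slc38a2 over the 12 libraries were chosen by the correlation of log2 CPM, which is given as a description. The libraries share depth, dissection and genotype with each other, and a gene that is high in WT is favoured by this measure. Clk3, a kinase of splicing factors, led with a Pearson r of 0.906 (Spearman rho 0.923), and was 47.8 CPM in WT against 35.4 to 39.9 in the means of the other genotypes. Elovl5, which elongates polyunsaturated fatty acids, followed with r 0.898 (rho 0.832). Lime1, a membrane adaptor of immune cells, had r 0.897 (rho 0.818). Ero1l, the oxidase that drives disulfide formation in the endoplasmic reticulum, had r 0.893 (rho 0.895), and the adiponectin receptor Adipor2 had r 0.891 (rho 0.867). After the genotype means were removed, r was 0.761 for Clk3, 0.573 for Elovl5, 0.828 for Lime1, 0.797 for Ero1l and 0.920 for Adipor2, values that the choice of these genes over the same libraries also favours. That the family members lay below these 5 in r follows from how the 5 were chosen. Among the members, r with Slc38a2 was 0.529 for Slc38a7, 0.50 for Slc38a1 and 0.249 or less for the other 5 tested. After the genotype means were removed, it was 0.560 for Slc38a9, 0.402 for Slc38a1, 0.358 for Slc38a7 and 0.246 or less for the rest.

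Genes around amino acid transport were then read beside the family in 5 lists. None of their genes passed in any of the 8 comparisons by edgeR, while DESeq2 called 3 in the mean of the 3 other genotypes against WT (of 79 genes it called in all) and 2 in 5xFAD against WT (of 98). It called 1 each in p75NTRko-labelled against WT (of 55), in p75NTRko-labelled against 5xFAD (of 80) and in the interaction (of 25), and 0 in the others. Without 5xFAD/p75NTRko replicate 3 edgeR called 5 in the mean of the others against WT, namely Slc32a1, Slc6a9, Slc7a14, Eif2ak4 and Nprl2, with adjusted p of 0.0489 to 0.0499, when 183 genes passed in all. The genes with the smallest p in the mean of the others against WT are named below for each list, with their values.

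In the glutamate-glutamine cycle, 22 of 22 genes were tested, and 4 had an unadjusted p under 0.05 in the mean of the other genotypes against WT, where 15.2% of all genes did. The list's median was -0.06 log2 units, beside -0.0036 over all genes. Slc32a1, the vesicular GABA transporter, was 279 CPM ± 7.62 in WT, 216 ± 19.8 in 5xFAD, 212 ± 6.53 in libraries labelled p75NTRko and 235 ± 14.5 in those labelled 5xFAD/p75NTRko (SD, n = 3 each). Its lowest WT library, at 269.9 CPM, was above the highest other, at 249 CPM, as for 138 (1.06%) of all genes tested. Slc32a1 was named for its small p in this comparison, which favours such a gap. The difference of Slc32a1 was -0.33 (SE 0.0697, adjusted p 0.161, edgeR), and by DESeq2 it was -0.33 with an adjusted p of 0.00517. The sum of 10 GABAergic neuron markers, Slc32a1 among them, was 1136 to 1334 CPM in WT and 1072 to 1315 CPM in the other libraries.

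Of 31 amino acid transporters from other families 25 were tested, with a median of 0.02 in that comparison and 5 at an unadjusted p under 0.05 (15.2% of all genes). Slc6a9, the glycine transporter of astrocytes, was 33.8 CPM ± 2.34 in WT, 20.07 ± 3.99 in 5xFAD, 21.7 ± 1.15 in libraries labelled p75NTRko and 27.8 ± 4.20 in those labelled 5xFAD/p75NTRko (SD, n = 3 each). Its difference was -0.56 (SE 0.121, adjusted p 0.161, edgeR; 0.0179 by DESeq2 and 0.0464 with no filter on low counts). Slc7a14, a lysosomal cationic amino acid transporter of neurons, was 151 CPM ± 38.3 in WT and 204 to 221 in the other means, a difference of 0.50 (SE 0.160, adjusted p 0.237, edgeR; 0.0461 without WT replicate 3).

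For genes of the amino acid response, which the factor ATF4 drives when amino acids run short and to which Slc38a2 itself belongs, 24 of 30 were tested, with a median of -0.07 and 5 at an unadjusted p under 0.05 (15.2% of all genes). Eif2ak4, the kinase that senses uncharged transfer RNA, was lowest in WT, at 13.9 CPM ± 0.567 against 19.2 ± 1.15, 18.4 ± 1.44 and 19.9 ± 2.02 in 5xFAD, p75NTRko-labelled and 5xFAD/p75NTRko-labelled libraries (SD, n = 3 each), a difference of 0.46 (SE 0.113, adjusted p 0.182, edgeR). Ddit3, a stress-induced transcription factor, had a difference of -0.33 (SE 0.117, adjusted p 0.254, edgeR). In the osmotic stress list 12 of 14 genes were tested, with a median of -0.08 and 3 at an unadjusted p under 0.05. Slc5a3, the inositol transporter induced by hypertonicity, was 71.9 CPM ± 9.56 in WT, 49.1 ± 5.54 in 5xFAD, 63.7 ± 9.37 in libraries labelled p75NTRko and 55.5 ± 12.07 in those labelled 5xFAD/p75NTRko (SD, n = 3 each), a difference of -0.37 (SE 0.127, adjusted p 0.252, edgeR), and the water channel Aqp4 had -0.39 (SE 0.134, adjusted p 0.250, edgeR).

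Of the genes that sense amino acids at the lysosome for mTORC1, the setting in which Slc38a9 works, 33 of 36 were tested, with a median of -0.04 and 2 at an unadjusted p under 0.05 (15.2% of all genes). Nprl2, a subunit of the complex that restrains mTORC1, was 47.7 CPM ± 6.85 in WT and 33.9 ± 1.43, 33.3 ± 5.34 and 35.3 ± 5.31 in 5xFAD, p75NTRko-labelled and 5xFAD/p75NTRko-labelled libraries (SD, n = 3 each). Its difference was -0.48 (SE 0.117, adjusted p 0.182, edgeR; 0.0413 by DESeq2). Flcn, which acts on the Rag GTPases, had -0.25 (SE 0.103, adjusted p 0.282, edgeR).

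**Figure D5:**
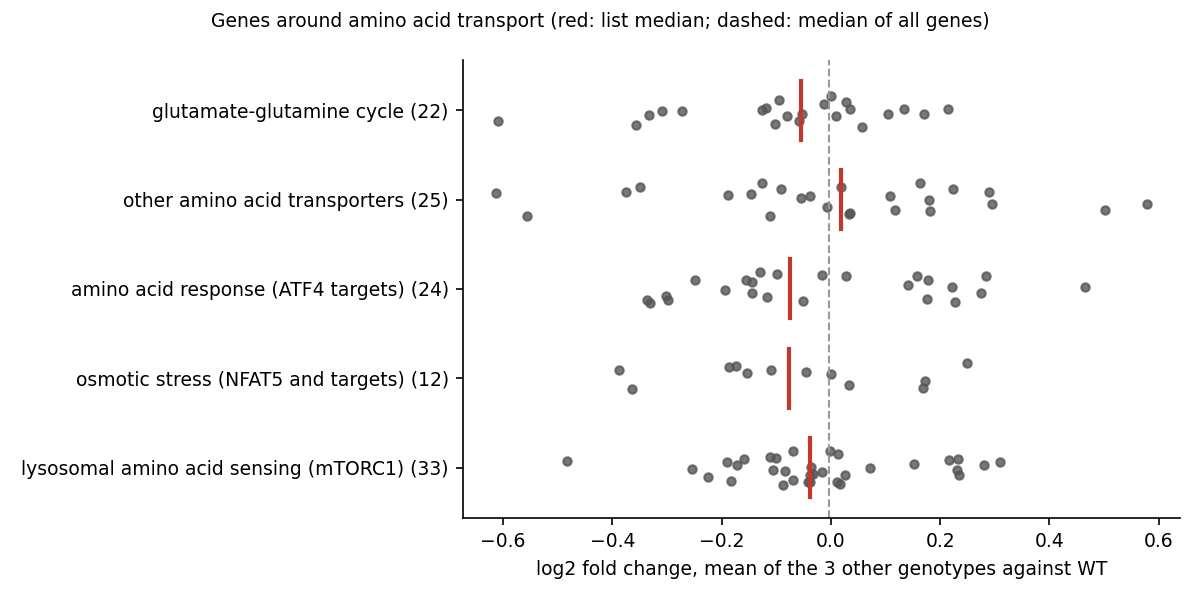
Log2 fold changes in the mean of the 3 other genotypes against WT (horizontal axis) for each gene tested in the 5 lists, with list sizes in brackets, the median of each list in red and the median of all genes dashed. The list medians lie between -0.08 and 0.02, and 0 of these genes passed by edgeR.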

How the data were processed

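The authors deposited whole-number read counts by gene symbol for the 12 libraries; per the submitters' processing notes the build was mm10 and the tools were FastQC, HISAT2, SAMtools, HTSeq and edgeR, without versions. Annotation and strand setting are not given in the sources used here, so overlapping and antisense genes are uncertain. The 5 summary lines were left out, after which 32.2% to 38.5% of each column remained. Model fits used edgeR 4.0.16 under R 4.3.3: filterByExpr by genotype, TMM factors (0.975 to 1.03), and a quasi-likelihood fit with a mean per genotype on all 12 libraries. The 8 comparisons were each adjusted by Benjamini-Hochberg over 13065 genes, with a threshold of 0.05. CPM used all gene-assigned counts with the TMM factors; correlations used log2 CPM with 2 as prior count. Each 95% interval and SE was derived from the F statistic of its fold change.

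Of the lists, 4 symbols were not matched in the table. The members and lists were chosen with earlier results of these data known. Named besides the members were the 5 genes most correlated with Slc38a2, genes within 1 Mb, and from each list the genes past the threshold or else the 2 with the smallest p (1 gene so chosen is not reported here); Ngfr, Thy1 and Xist checked the labels. Markers of 9 cell or tissue types were summed per library, and Ttr of the choroid plexus list is also given alone. Replicates are labelled as biological, and every pair of libraries of 1 genotype differed by more than counting error, with a chi-square at least 3.04 times its degrees of freedom. Limits from counts cover counting error only. On simulated data for 5xFAD against WT, a mean of 12935 genes was tested over 10 draws. A 1.5-fold change was recovered in 26.9% of the genes given it and a 2-fold change in 81.2%. Of the calls, 6.42% were false at 1.5-fold (1.64% to 16.4% in single draws) and 5.43% at 2-fold. Changes were given only to genes with a mean above 5 CPM. Slc38a5 and Slc38a6, at 3.30 and 4.61 CPM, lie below that range. Alternatives were DESeq2 1.42.0, RLE factors, other count filters, only the compared genotypes, Xist class, marker scores or a replicate block as terms, and leaving out each library.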

Additional observations from a re-analysis of the deposited data

How the results depend on the processing

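The alternatives were 21 settings (20 for the mean of the 3 other genotypes and for the interaction, which need all genotypes). That Slc38a2 kept its direction against WT when 1 library was left out follows from how it was chosen. With Xist class as a term the log2 fold change of Slc38a2 moved to -0.42 in 5xFAD against WT, -0.31 in p75NTRko-labelled against WT, -0.42 for the mean of the others and 0.18 for the interaction, and it reversed to -0.12 (adjusted p 0.999, edgeR) in 5xFAD/p75NTRko-labelled against 5xFAD. Leaving out 1 library at a time, the difference of 5xFAD/p75NTRko-labelled from p75NTRko-labelled libraries ran from -0.18 to 0.025, with the sign turned without p75NTRko replicate 1 (0.025) or 5xFAD/p75NTRko replicate 2 (0.0035); the cause was not tested. With only the compared genotypes in the fit, 1 member, Slc38a5, passed in p75NTRko-labelled against 5xFAD. Of 1146 values of the other 7 members under alternatives, 1063 kept the sign of the reported value, and the 1 just given passed; sign changes of values that passed in neither fit were only counted.

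A fit with the replicate number as a block left Slc38a2 at -0.68 in 5xFAD against WT and changed no call of a member. Same-numbered libraries did not deviate together (r of -0.42 to 0.14 over 18 pairs), so the numbers were not taken to pair the mice. Calls over all genes varied between alternatives, from 0 to 98 in 5xFAD against WT, 0 to 55 in p75NTRko-labelled against WT, 0 to 30 in 5xFAD/p75NTRko-labelled against WT, 0 to 189 in the mean of the others against WT, 0 to 20 and 0 to 54 in 5xFAD/p75NTRko-labelled against 5xFAD and p75NTRko-labelled libraries, 1 to 219 in p75NTRko-labelled against 5xFAD and 1 to 25 in the interaction. Slc38a5 and Slc38a6 dropped out at a mean of 50 counts, and with 3 libraries a genotype their intervals span more than 1 log2 unit.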
